A study of Mus musculus with 9 samples.

Results

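The genes described here are 9 genes linked to T cell anergy, Nt5e, Izumo1r, Nrn1, Cblb, Itch, Rnf128, Dgka, Dgkz and Tox. They were taken by symbol from a table of 24594 genes, and all 9 were found. The filter on low values kept 11569 genes, and 8 of the 9 were among them. Rnf128 was the gene that did not pass.

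The study asked how the nuclear receptors Nr4a1 and Nr4a3 act when developing T cells meet a self-antigen in the thymus. Bulk RNA sequencing was done on 9 libraries of mouse thymocytes sorted as CD4+ CD8- CD69+ Vα2+ Vβ5+, an immature stage after positive selection. All cells carried the OT-II transgene, a T cell receptor that recognizes an ovalbumin peptide. They came from mixed bone marrow chimeras, irradiated hosts that received control OT-II marrow, OT-II marrow labelled Nr4a1-/- Nr4a3-/- (DKO) and non-transgenic wild-type marrow together, 4.7 weeks earlier.

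The 4 combinations of genotype and host were compared. Wild-type (WT) BoyJ hosts gave 2 libraries of OT-II cells (Nr4a1+/+ Nr4a3+/+) and 3 of DKO-labelled cells. RIPmOVA hosts gave 2 libraries of OT-II cells and 2 of DKO-labelled cells. RIPmOVA hosts were F1 animals of BoyJ and a C57BL/6 strain with the transgene Tg(Ins2-TFRC/OVA)296Wehi, in which the insulin promoter drives a membrane-bound ovalbumin. The labels give the WT hosts as BoyJ, while the study's methods describe them as F1 progeny of the same cross. If the label holds, host strain and antigen cannot be told apart. The control donor was an F1 of B6.Cg-Tg(TcraTcrb)425Cbn/J and BoyJ, and the DKO donor was C57BL/6, so donor background and genotype cannot be told apart. The labels give the deleted alleles as -/- with no Cre driver, and each host also held wild-type cells from the third donor. The labels name 3 WT and 2 RIPmOVA mice and no age, and OT-II and DKO-labelled libraries of one number came from the same mouse.

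Anergy is a state in which a T cell that has met antigen without full costimulation survives but responds poorly to it. Signalling in such cells is held down by ubiquitin ligases, which mark signalling proteins for removal, and by diacylglycerol kinases, which use up the diacylglycerol that carries the receptor signal to Ras. Surface CD73 and folate receptor 4, encoded by Nt5e and Izumo1r, are used together to sort anergic CD4 T cells.

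Libraries held 15520000 to 25050000 exonic reads. Gene-level RPKM (reads divided by exon length and by library size) of Nr4a1 in WT hosts was 73.4 ± 17.9 (SD, n = 2) among OT-II and 76 ± 14.3 (SD, n = 3) among DKO-labelled libraries, with 245 ± 21.9 and 258 ± 33.5 (SD, n = 2 each) in RIPmOVA hosts. That of Nr4a3 was 0.185 ± 0.00566 (SD, n = 2) and 0.382 ± 0.25 (SD, n = 3) in WT hosts, with 4.69 ± 1.38 among OT-II and 15.3 ± 1.7 among DKO-labelled libraries (SD, n = 2 each) in RIPmOVA hosts, where it was thus higher under the deletion label. Summed over exons, these values do not check the deletion, so these libraries are called DKO-labelled. The defining markers of the sorted cells were present, with the 5 CD4 single-positive markers summing to 953 to 1121 RPKM. Their sum hides opposite orders between hosts. Cd69 (76.2 to 138 RPKM over all libraries) and Cd24a (19.7 to 75.7 RPKM) were higher in every RIPmOVA than in every WT library. Within each genotype, Cd3e, Cd4 and Ccr7 were lower in RIPmOVA hosts. Whether the stage of the sorted cells differed between hosts was not tested. Reads over receptors that thymocytes should lack, a measure of background, were 1053 and 1499 RPM (scaled to library size only) in DKO-labelled RIPmOVA libraries and 295 to 1145 RPM in the others. High background and genotype cannot be told apart in RIPmOVA hosts.

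Differences were fitted with limma on log2(RPKM + 0.5), which understates changes of genes with low values. Calls needed an adjusted p of at most 0.05 together with a log2 fold change of at least 1 in either direction. Between hosts, Nt5e rose in OT-II cells, and Nt5e, Nrn1 and Cblb rose in DKO-labelled cells. Between genotypes, Nrn1 was higher in DKO-labelled than in OT-II cells of RIPmOVA hosts. The other 5 genes that passed the filter were called in no comparison.

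Mean level over the 9 libraries, per kilobase of exon, ran from 290 RPKM for Dgka down to 0.0812 for Rnf128. Between them stood Izumo1r at 65.8, Dgkz at 54.2, Tox at 45.9, Itch at 15.5, Cblb at 8.81, Nrn1 at 4.93 and Nt5e at 2.91 RPKM. In this order, the ranges over libraries of Dgka and Izumo1r did not overlap, nor did those of Tox and Itch, while the ranges of every other pair of neighbours did. The ranges were unequal. Itch, Tox, Dgka, Dgkz, Izumo1r and Cblb varied 1.29-, 1.38-, 1.66-, 1.78-, 2.22- and 3.26-fold between the lowest and the highest library, while Nt5e varied 182-fold and Nrn1 474-fold.

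**Figure D1:**
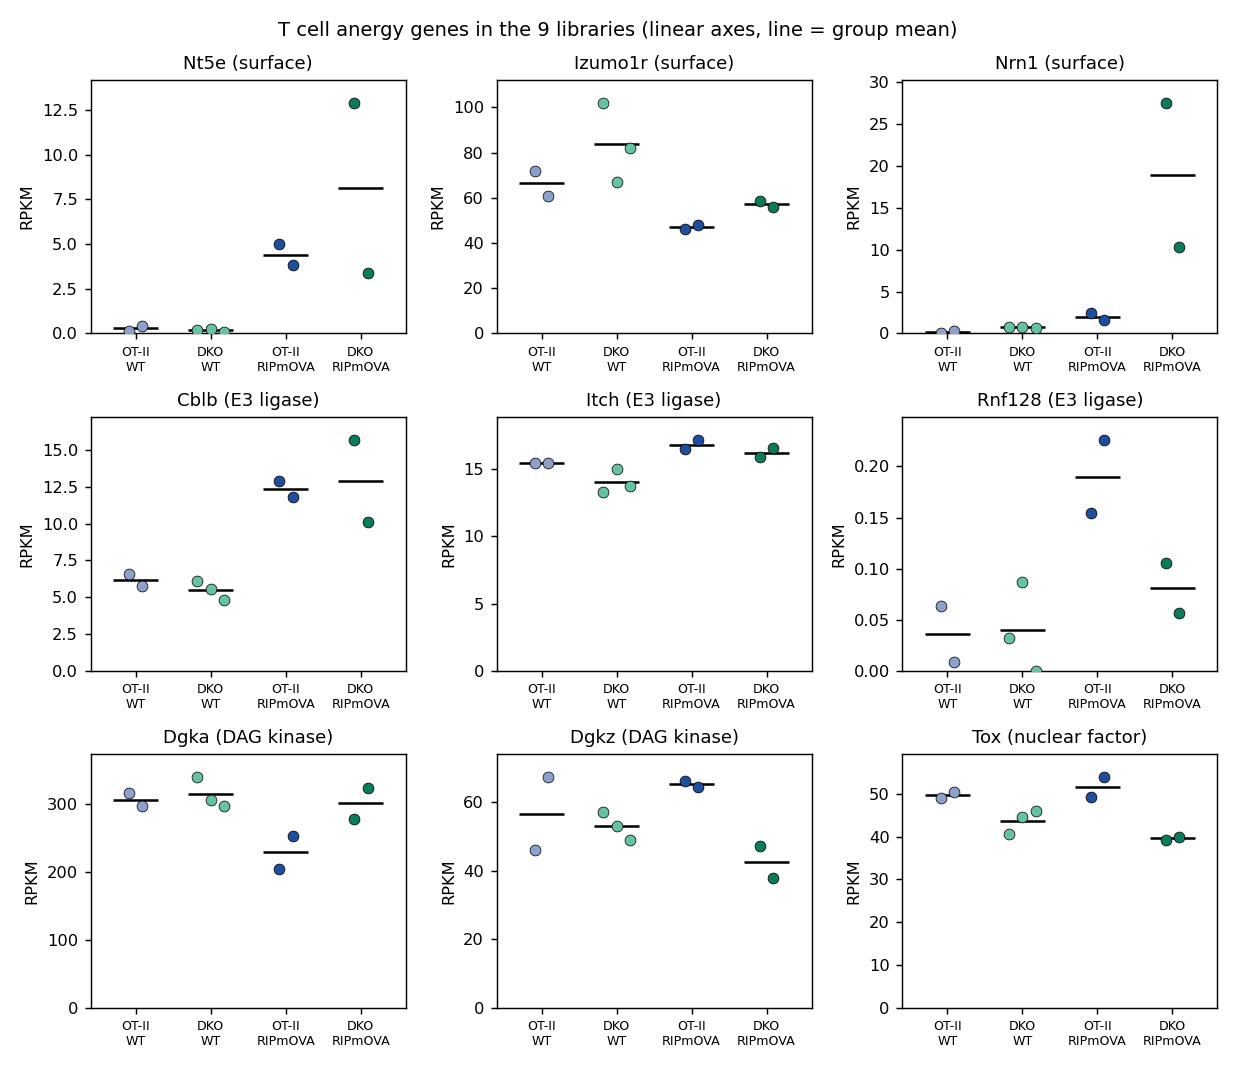
RPKM (linear axes from 0) of each of the 9 anergy genes in each library, by genotype and host; points are libraries and lines are group means. Nt5e, Nrn1 and Cblb sit higher in RIPmOVA hosts, and DKO-labelled RIPmOVA replicate 1 is the highest library for all 3 genes.

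All 9 genes are protein-coding, and positions are their spans in GRCm38. Where libraries or groups are said not to overlap, the share of all genes kept that separated likewise was not counted. With 2 or 3 libraries a group, such separation carries no test. The surface molecules come first. Nt5e (Entrez 23959, chr9:88327197-88372092, plus strand, GRCm38) encodes CD73, the ectoenzyme that makes adenosine from AMP. Nt5e in WT hosts was 0.136 and 0.422 RPKM in OT-II libraries. In DKO-labelled libraries of WT hosts it was 0.22, 0.25 and 0.071 RPKM, from 33, 31 and 11 reads. These 5 libraries were all low, and the genotypes overlapped. Nt5e in RIPmOVA hosts was 5.01 and 3.81 RPKM among the OT-II and 12.9 and 3.39 RPKM in the DKO-labelled libraries. Every RIPmOVA library was above every WT library, and within RIPmOVA hosts the genotypes overlapped.

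The mean of Nt5e was 15.8-fold higher in RIPmOVA than in WT hosts among OT-II libraries, 4.41 ± 0.85 against 0.279 ± 0.202 RPKM (SD, n = 2 each). The fitted log2 fold change was 2.67 (SE 0.50, limma adjusted p = 0.032). This was 1 of 8 anergy genes called, against 1.23% of all genes kept, but Nt5e passed the filter through RIPmOVA libraries alone. The call was lost in 15 of 22 alternative settings. Over all 22 the log2 fold change was 2.08 to 4.02 and the adjusted p ran from 0.0043 to 0.29. Among the libraries compared, it was lost without OT-II WT replicate 1 (adjusted p = 0.16), without OT-II RIPmOVA replicate 1 (0.28) and without OT-II RIPmOVA replicate 2 (0.14). It was also lost without any one of the 3 DKO-labelled WT libraries, which enter only through the shared spread (adjusted p = 0.054 to 0.062). With each chimera as a replicate block it was 2.79 (adjusted p = 0.057). In bulk libraries, more cells with a transcript and more transcript per cell cannot be told apart.

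In DKO-labelled libraries the mean of Nt5e was 45.2-fold higher in RIPmOVA hosts, 8.15 ± 6.74 (SD, n = 2) against 0.18 ± 0.0959 RPKM (SD, n = 3), and limma gave a log2 fold change of 3.42 (SE 0.45, adjusted p = 0.0048). Without DKO-labelled RIPmOVA replicate 1, the higher of the pair, it was 2.52 (adjusted p = 0.019), and without replicate 2 it was 4.31 (adjusted p = 0.00064). The genotypes were not called different by limma. The paper, using DESeq2 on these data, counts Nt5e among genes higher in DKO than in WT OT-II cells of RIPmOVA hosts. In RIPmOVA hosts DKO-labelled minus OT-II was 0.57 (95% interval -0.55 to 1.69, limma adjusted p = 0.54), and in WT hosts it was -0.18 (95% interval -1.20 to 0.84, adjusted p = 0.96). The host effects of the genotypes differed by 0.75 (95% interval -0.77 to 2.26, adjusted p = 0.71).

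Izumo1r (Entrez 64931, chr9:14885814-14903949, minus strand) encodes folate receptor 4, named JUNO in the egg. It was well expressed in every library. Izumo1r in WT hosts was 71.8 and 61 RPKM among the OT-II and 102, 66.8 and 81.9 RPKM in the DKO-labelled libraries. RIPmOVA hosts gave 46 and 47.9 RPKM among the OT-II and 58.4 and 55.9 RPKM in the DKO-labelled libraries. Every RIPmOVA library was below every WT library, the opposite order to that of Nt5e. The mean in RIPmOVA hosts was 70.7% of that in WT hosts among OT-II libraries, a log2 fold change of -0.49 (95% interval -0.88 to -0.11, limma adjusted p = 0.22). Among DKO-labelled libraries it was 68.3%, a log2 fold change of -0.52 (95% interval -0.88 to -0.17, adjusted p = 0.12). Neither passed the test. DKO-labelled minus OT-II was 0.28 (95% interval -0.10 to 0.67, adjusted p = 0.36) in RIPmOVA hosts and 0.31 (95% interval -0.04 to 0.67, adjusted p = 0.68) in WT hosts.

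Nrn1 (Entrez 68404, chr13:36725361-36735131, minus strand) encodes neuritin, a small GPI-anchored protein first known from neurons. Nrn1 in WT hosts was 0.058 and 0.283 RPKM in OT-II libraries, from 5 and 36 reads, and 0.752, 0.809 and 0.659 RPKM in DKO-labelled libraries, from 101, 90 and 91 reads. Nrn1 in RIPmOVA hosts was 2.42 and 1.57 RPKM among the OT-II and 27.5 and 10.3 RPKM in the DKO-labelled libraries. No pair of groups overlapped, and the order from low to high was OT-II WT, DKO-labelled WT, OT-II RIPmOVA and DKO-labelled RIPmOVA.

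Within RIPmOVA hosts, mean Nrn1 was 9.48-fold higher in DKO-labelled libraries, 18.9 ± 12.1 against 1.99 ± 0.603 RPKM (SD, n = 2 each). The log2 fold change was 2.82 (SE 0.40, limma adjusted p = 0.011). It was the 1 of 8 anergy genes called between genotypes in RIPmOVA hosts, against 1.07% of all genes kept. With the receptor background as a covariate the fold change was 2.91 and the adjusted p 0.14. The call was also lost without either OT-II RIPmOVA library (3.07 with adjusted p = 0.067 without replicate 1, and 2.58 with adjusted p = 0.09 without replicate 2) and with no filter (adjusted p = 0.052). Leaving out one DKO-labelled RIPmOVA library kept the call, at 2.14 (adjusted p = 0.034) without replicate 1 and 3.51 (adjusted p = 0.0063) without replicate 2.

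Between hosts, Nrn1 in DKO-labelled libraries was 25.5-fold higher in RIPmOVA than in WT hosts by the means, and limma gave a log2 fold change of 3.81 (SE 0.36, adjusted p = 0.00095). This call was kept in all 22 alternatives, at 3.13 to 4.54. The lowest value was that without DKO-labelled RIPmOVA replicate 1 (adjusted p = 0.0057), and without replicate 2 it was 4.50 (adjusted p = 0.00038). In OT-II libraries the means differed 11.7-fold, 1.99 ± 0.603 against 0.17 ± 0.159 RPKM (SD, n = 2 each), and the log2 fold change was 1.89 (95% interval 0.99 to 2.80, adjusted p = 0.052). In WT hosts DKO-labelled minus OT-II was 0.91 (95% interval 0.08 to 1.73, limma adjusted p = 0.58). Nrn1 had the largest interaction of host and genotype of the 8 genes, 1.92 (95% interval 0.70 to 3.14, unadjusted p = 0.0061), and its limma adjusted p was 0.46.

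Exons of Nrn1 share 501 annotated bases with Fars2 on the other strand, 22.3% of the exon bases annotated for Nrn1 in GRCm38, and the use of strand in counting was not stated. The exon length in the table was 5511 bases for Nrn1, against 2249 annotated, so the share in the gene model behind the RPKM may differ. Fars2, a mitochondrial phenylalanyl-tRNA synthetase, ranged from 2.95 to 4.44 RPKM over the 9 libraries. Its highest group was OT-II RIPmOVA, at 4.34 ± 0.144 RPKM (SD, n = 2), against 3.71 ± 0.194 (SD, n = 2) in DKO-labelled RIPmOVA libraries. Exons of Dgka, Dgkz and Tox share 2.2%, 3.54% and 3.42% of their bases with a gene on the other strand.

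The ubiquitin ligases follow. Cblb (Entrez 208650, chr16:52031225-52208048, plus strand) encodes Cbl-b, a RING-type ligase that restrains signalling when CD28 is not engaged. Cblb in WT hosts was 6.57 and 5.78 RPKM among the OT-II and 6.07, 5.58 and 4.81 RPKM in the DKO-labelled libraries. RIPmOVA hosts gave 12.9 and 11.8 RPKM among the OT-II and 15.7 and 10.1 RPKM in the DKO-labelled libraries. Every RIPmOVA library was above every WT library, and the genotypes overlapped in both hosts.

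Mean Cblb was 2.35-fold higher in RIPmOVA than in WT hosts among DKO-labelled libraries, and limma gave a log2 fold change of 1.13 (SE 0.18, adjusted p = 0.01). With Nt5e and Nrn1, it made 3 of 8 anergy genes called in this comparison, against 1.68% of all genes kept. Nt5e and Nrn1 reached an RPKM of 1 in RIPmOVA libraries alone. They thus entered the 8 genes through the hosts where they were high, and the count is a description that tests nothing about the set. The call was lost in 4 of 22 alternatives, with no filter (adjusted p = 0.06), with the receptor background as a covariate (1.06, adjusted p = 0.1) and in the next pair. Without DKO-labelled RIPmOVA replicate 1 the log2 fold change was 0.83 (adjusted p = 0.057), and after median-of-ratios rescaling 0.96 (adjusted p = 0.021), under the fold limit. Among OT-II libraries the means differed 2-fold, and the log2 fold change of 0.95 (95% interval 0.51 to 1.38, limma adjusted p = 0.045) was also under the fold limit. Between genotypes Cblb differed by 0.03 (95% interval -0.41 to 0.46, adjusted p = 0.96) in RIPmOVA hosts and by -0.16 (95% interval -0.56 to 0.24, adjusted p = 0.89) in WT hosts.

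RefSeq promoter windows (GRCm38.p6, 250 bases before to 50 after a start site) were matched for 6 of the 9 genes, Nt5e, Izumo1r, Cblb, Rnf128, Dgka and Dgkz, with 10 windows in all. Both strands were searched for the Nr4a monomer site AAAGGTCA, the NFAT core GGAAA, the AP-1 site TGANTCA and the EGR site GCGNGGGCG. The Nr4a, AP-1 and EGR letters were in 0 of the 10 windows, and in 1.51%, 7.81% and 5.55% of all 32851 windows. The NFAT core was in 7 of the 10 windows, and in 61.3% of all windows. The 250 bases before the start sites of Cblb and Nt5e are shown because both genes were higher in every RIPmOVA library than in every WT library. Capitals mark the NFAT core, which begins at -231 and -191 from the start site in Cblb and reads TTTCC there because it lies on the other strand. The window of Nt5e does not hold these letters. These matches are descriptions of the letters alone.
Cblb, chr16:52031299-52031548, plus strand: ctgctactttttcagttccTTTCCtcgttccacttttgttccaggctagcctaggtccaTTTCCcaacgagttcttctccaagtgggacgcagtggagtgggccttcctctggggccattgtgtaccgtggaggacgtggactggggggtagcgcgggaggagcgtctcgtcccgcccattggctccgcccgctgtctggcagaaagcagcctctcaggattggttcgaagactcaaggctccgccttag
Nt5e, chr9:88327359-88327608, plus strand: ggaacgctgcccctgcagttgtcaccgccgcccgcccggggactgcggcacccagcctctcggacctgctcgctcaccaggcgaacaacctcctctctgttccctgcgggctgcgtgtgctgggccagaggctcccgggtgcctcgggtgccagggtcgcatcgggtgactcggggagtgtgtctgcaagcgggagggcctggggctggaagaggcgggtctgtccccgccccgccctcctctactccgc

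Itch (Entrez 16396, chr2:155133509-155226855, plus strand) encodes a HECT-type ligase of the Nedd4 family. Itch in WT hosts was 15.5 RPKM in both OT-II libraries and 13.3, 15 and 13.8 RPKM in DKO-labelled libraries. Itch in RIPmOVA hosts was 16.5 and 17.2 RPKM among the OT-II and 15.9 and 16.6 RPKM in the DKO-labelled libraries. Within each genotype the RIPmOVA libraries were above the WT libraries by a small margin. The host effect was 0.12 (95% interval -0.10 to 0.33, limma adjusted p = 0.64) in OT-II and 0.20 (95% interval 0.01 to 0.40, adjusted p = 0.27) in DKO-labelled libraries. The genotype effect was -0.05 (95% interval -0.26 to 0.17, adjusted p = 0.8) in RIPmOVA and -0.14 (95% interval -0.33 to 0.06, adjusted p = 0.77) in WT hosts.

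Rnf128 (Entrez 66889, chrX:139563316-139673145, plus strand) encodes GRAIL, a transmembrane RING-type ligase named for its link to anergy. In WT hosts it had 5 and 1 reads in OT-II libraries and 4, 9 and 0 reads in DKO-labelled libraries. RIPmOVA hosts gave 13 and 28 reads in OT-II libraries and 11 and 5 reads in DKO-labelled libraries. The highest value was 0.226 RPKM (exact 95% Poisson interval 0.15 to 0.326, covering counting error only, since reads carry no molecular identifiers). In the library with 0 reads, 3 reads would give 0.0234 RPKM, and the exact interval reached 0.0288 RPKM. Both OT-II RIPmOVA libraries were above the other 7, at a level far under the filter. With no filter, the host effect in OT-II libraries was 0.37 (95% interval 0.13 to 0.60, limma adjusted p = 0.3), and DKO-labelled minus OT-II in RIPmOVA hosts was -0.25 (95% interval -0.49 to -0.01, adjusted p = 0.18).

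The diacylglycerol kinases were high in all groups. Dgka (Entrez 13139, chr10:128720134-128744855, minus strand) encodes DGKα, a calcium-responsive kinase that turns diacylglycerol into phosphatidic acid. Dgka in WT hosts was 316 and 296 RPKM among the OT-II and 339, 306 and 297 RPKM in the DKO-labelled libraries. RIPmOVA hosts gave 204 and 253 RPKM among the OT-II and 278 and 323 RPKM in the DKO-labelled libraries. The OT-II RIPmOVA libraries were the lowest of the 9, and the other 3 groups overlapped. The mean of OT-II RIPmOVA libraries was 74.7% of that of OT-II WT libraries, with a log2 fold change of -0.43 (95% interval -0.71 to -0.15, limma adjusted p = 0.15). DKO-labelled minus OT-II in RIPmOVA hosts was 0.40 (95% interval 0.11 to 0.68, adjusted p = 0.13). The host effect in DKO-labelled libraries was -0.07 (95% interval -0.32 to 0.19, adjusted p = 0.79), and the difference between the host effects was 0.36 (95% interval -0.02 to 0.75, adjusted p = 0.54).

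Dgkz (Entrez 104418, chr2:91932824-91975864, minus strand) encodes DGKζ, the other main diacylglycerol kinase of T cells. Dgkz in WT hosts was 45.9 and 67.3 RPKM among the OT-II and 57.2, 52.9 and 48.9 RPKM in the DKO-labelled libraries. Dgkz in RIPmOVA hosts was 66.2 and 64.4 RPKM among the OT-II and 47.1 and 37.8 RPKM in the DKO-labelled libraries. Within RIPmOVA hosts the DKO-labelled libraries were below the OT-II libraries, while in WT hosts the genotypes overlapped. DKO-labelled minus OT-II was -0.62 (95% interval -1.01 to -0.23, limma adjusted p = 0.098) in RIPmOVA hosts and -0.07 (95% interval -0.43 to 0.29, adjusted p = 0.95) in WT hosts. The host effect was 0.23 (95% interval -0.16 to 0.62, adjusted p = 0.61) in OT-II and -0.32 (95% interval -0.68 to 0.03, adjusted p = 0.32) in DKO-labelled libraries. The difference between them was -0.55 (95% interval -1.08 to -0.02, unadjusted p = 0.043, limma adjusted p = 0.52). In RIPmOVA hosts Dgka and Dgkz thus stood in opposite order between the genotypes, without either passing the test.

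Tox (Entrez 252838, chr4:6686353-6991557, minus strand) encodes a nuclear HMG-box protein needed for the CD4 lineage in the thymus and known from dysfunctional T cells in the periphery. Tox in WT hosts was 49.1 and 50.5 RPKM among the OT-II and 40.6, 44.5 and 46 RPKM in the DKO-labelled libraries. RIPmOVA hosts gave 49.2 and 53.9 RPKM among the OT-II and 39.2 and 39.9 RPKM in the DKO-labelled libraries. All 5 DKO-labelled libraries were below all 4 OT-II libraries, an order whose share over all genes was not counted. DKO-labelled minus OT-II was -0.38 (95% interval -0.58 to -0.17, limma adjusted p = 0.072) in RIPmOVA hosts and -0.19 (95% interval -0.38 to 0.00, adjusted p = 0.63) in WT hosts. The host effect was 0.05 (95% interval -0.16 to 0.25, adjusted p = 0.86) in OT-II and -0.14 (95% interval -0.33 to 0.05, adjusted p = 0.39) in DKO-labelled libraries.

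**Figure D2:**
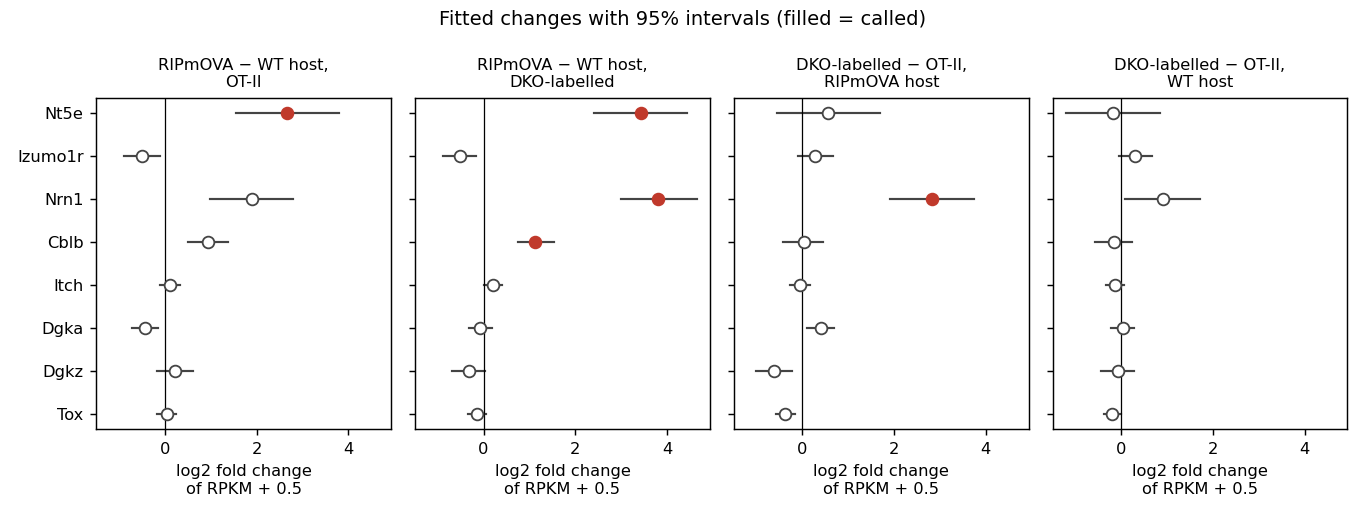
Log2 fold change of RPKM + 0.5 (horizontal axis) for the 8 anergy genes that passed the filter, in the 4 pairwise comparisons; points are limma estimates, lines their 95% intervals and filled points the called genes. The 5 filled points are Nt5e in both genotypes, Nrn1 and Cblb in DKO-labelled cells between hosts, and Nrn1 between genotypes in RIPmOVA hosts.

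The median log2 fold change of the 8 genes was 0.17, against -0.02 for all genes kept, for the host effect in OT-II libraries, 0.07 against 0.03 for that in DKO-labelled libraries, and 0.15 against 0.04 between genotypes in RIPmOVA hosts. At an unadjusted p under 0.05 there were 5 of 8 genes in each host comparison, against 14.3% and 17.6% of all genes, and 4 of 8 between genotypes in RIPmOVA hosts, against 21.4%. They went both ways. In OT-II libraries Izumo1r and Dgka were lower in RIPmOVA hosts, and Nt5e, Nrn1 and Cblb higher. In DKO-labelled libraries Izumo1r was lower, and Nt5e, Nrn1, Cblb and Itch higher. By genotype, Nrn1 and Dgka were higher under the DKO label, and Dgkz and Tox lower. The members were chosen with earlier results of these data known, so these shares are descriptions. Between genotypes in WT hosts limma called 0 of 8, with 1 (Nrn1) at an unadjusted p under 0.05, and 0.0605% of all genes were called. The interaction gave 0 of 8 calls, with 2 (Nrn1 and Dgkz) at an unadjusted p under 0.05, and 0.0173% of all genes were called. The voom model on recovered reads also called 0 of 8 in these last comparisons. The comparisons share libraries, so their values are not independent of each other.

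**Figure D3:**
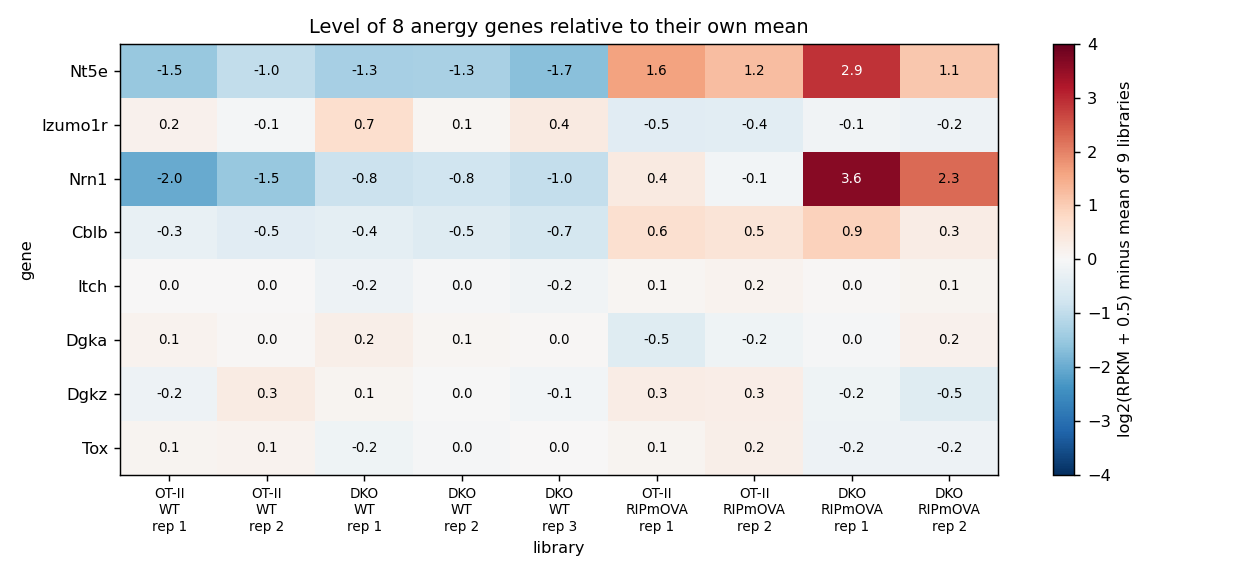
Level of 8 anergy genes in each library as log2(RPKM + 0.5) minus the mean of the gene over the 9 libraries (color and number). Nt5e, Nrn1 and Cblb reach their highest values in DKO-labelled RIPmOVA replicate 1 (2.88, 3.63 and 0.91), while Itch and Tox stay close to 0 throughout.

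The genes whose pattern over the 9 libraries was most like that of a called member were found by the root mean square difference of centred log2(RPKM + 0.5). Nearest to Nt5e were Tbx21, which encodes T-bet (0.34), and Dusp4, a MAP kinase phosphatase (0.36). Tbx21 was 5.38 ± 0.759 RPKM among the OT-II and 5.72 ± 2.43 RPKM in the DKO-labelled libraries of RIPmOVA hosts (SD, n = 2 each), and its means in WT hosts were 0.191 and 0.119 RPKM. Nearest to Cblb were 2310001H17Rik (0.13) and Nfkbid, a nuclear IκB protein (0.16). Nfkbid was 81.1 ± 2.7 and 91.1 ± 7.72 RPKM in RIPmOVA hosts (SD, n = 2 each), with means of 38.7 and 37.1 RPKM in WT hosts. Nearest to Nrn1 were Spry1, a feedback inhibitor of receptor signalling (0.53), and Endod1 (0.59). Spry1 was 1.27 ± 0.00636 RPKM among the OT-II and 13.2 ± 14.2 RPKM in the DKO-labelled libraries of RIPmOVA hosts (SD, n = 2 each), so its level in the latter also differed widely between the pair. These are descriptions over 9 libraries and carry no test.

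Other genes of the same pathways were taken from 6 lists of 52 genes, of which 40 passed the filter. The adenosine partners of Nt5e, the folate receptors, the relatives and adaptors of the ligases, the diacylglycerol kinases and effectors, and the Tox and Nrn1 relatives held no called gene in any of the 4 pairwise comparisons. All calls were among 16 other genes linked to anergy. Between hosts, limma called 0 of 40 listed genes in OT-II libraries, with 13 at an unadjusted p under 0.05 and 0 called by voom, against 1.23% of all genes called and 14.3% at an unadjusted p under 0.05. In 3 alternatives 1 gene was called. It was Neurl3 after median-of-ratios rescaling (1.26, adjusted p = 0.045), Socs3 with the chimera as a replicate block (-1.32, adjusted p = 0.019) and Egr3 without OT-II WT replicate 2 (1.28, adjusted p = 0.041). In DKO-labelled libraries 4 of 40 rose (10%, against 1.68% of all genes kept) and none fell. Of these, Lag3 reached an RPKM of 1 in RIPmOVA libraries alone, so it entered the 40 through the hosts where it was high. The lists were chosen with earlier results of these data known, and the paper names Neurl3, Ctla4 and Lag3 from the same data. The shares of listed genes called, here and below, are therefore descriptions and no test of the lists. With the chimera as a replicate block the count was also 4, but Lag3 was not called and Socs3, a feedback inhibitor of cytokine signalling, was called lower (-1.05, adjusted p = 0.014).

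Of these 4, Neurl3, a ubiquitin ligase, had the largest change. It was 15.6 ± 4.91 RPKM (SD, n = 2) in RIPmOVA hosts against 0.984 ± 0.314 RPKM (SD, n = 3) in WT hosts, and its log2 fold change was 3.43 (SE 0.27, limma adjusted p = 0.00044). Ctla4, an inhibitory receptor that competes with CD28, rose by 2.63 (SE 0.35, adjusted p = 0.0047), from 3.4 ± 1.44 (SD, n = 3) to 22.6 ± 0.817 RPKM (SD, n = 2). Lag3, an inhibitory receptor for MHC class II, rose by 2.12 (SE 0.38, adjusted p = 0.019), from 0.301 ± 0.218 (SD, n = 3) to 3.04 ± 1.38 RPKM (SD, n = 2). In OT-II libraries Neurl3, Ctla4 and Lag3 were also higher in RIPmOVA hosts, though not called. Means were 7.14 against 2.89 RPKM for Neurl3 (limma adjusted p = 0.094) and 16.1 against 7.29 RPKM for Ctla4 (0.22). For Lag3 they were 0.795 against 0.265 RPKM (0.49). With all libraries, none of these was called between genotypes in RIPmOVA hosts (adjusted p = 0.1, 0.44 and 0.11) or in the interaction. The call of Lag3 was lost in 7 of the 21 alternatives in which it was tested. These were no filter (adjusted p = 0.069), both replicate blocks (just over 0.05 for the chimera and 0.11 for the number), the receptor background as a covariate (0.11), and leaving out DKO-labelled WT replicate 1 (0.069), DKO-labelled WT replicate 3 (0.075) or DKO-labelled RIPmOVA replicate 1 (0.24). The fourth was Nfatc1, named through the comparison of genotypes, and after median-of-ratios rescaling it was under the fold limit (0.97, adjusted p = 0.016). Without DKO-labelled RIPmOVA replicate 1 the count was 2 (Neurl3 and Ctla4), and without replicate 2 of that group it was 8.

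Nfatc1, a calcium-regulated transcription factor, was also the 1 of 40 genes called between genotypes in RIPmOVA hosts (2.5%, against 1.07% of all genes kept). DKO-labelled libraries had 67.7 ± 17.3 RPKM, against 30.3 ± 0.264 RPKM in OT-II libraries (SD, n = 2 each), and the log2 fold change was 1.12 (SE 0.15, limma adjusted p = 0.0084). The count was 0 without DKO-labelled RIPmOVA replicate 1, without either OT-II RIPmOVA library, with the receptor background as a covariate and after median-of-ratios rescaling. Nfatc1 in OT-II libraries differed between hosts by 0.02 (SE 0.15, adjusted p = 0.96). Between genotypes in WT hosts limma called 0 of 40, with 6 at an unadjusted p under 0.05 and 0 called by voom, against 0.0605% of all genes called and 7.89% at an unadjusted p under 0.05. The interaction called 0 of 40, with 8 at an unadjusted p under 0.05 and 0 called by voom, against 0.0173% and 9.32% of all genes. Without OT-II WT replicate 2 the interaction called 2, Neurl3 (2.56, adjusted p = 0.033) and Dgkd (-1.08, adjusted p = 0.04), and without DKO-labelled RIPmOVA replicate 2 it called Nfatc1.

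**Figure D4:**
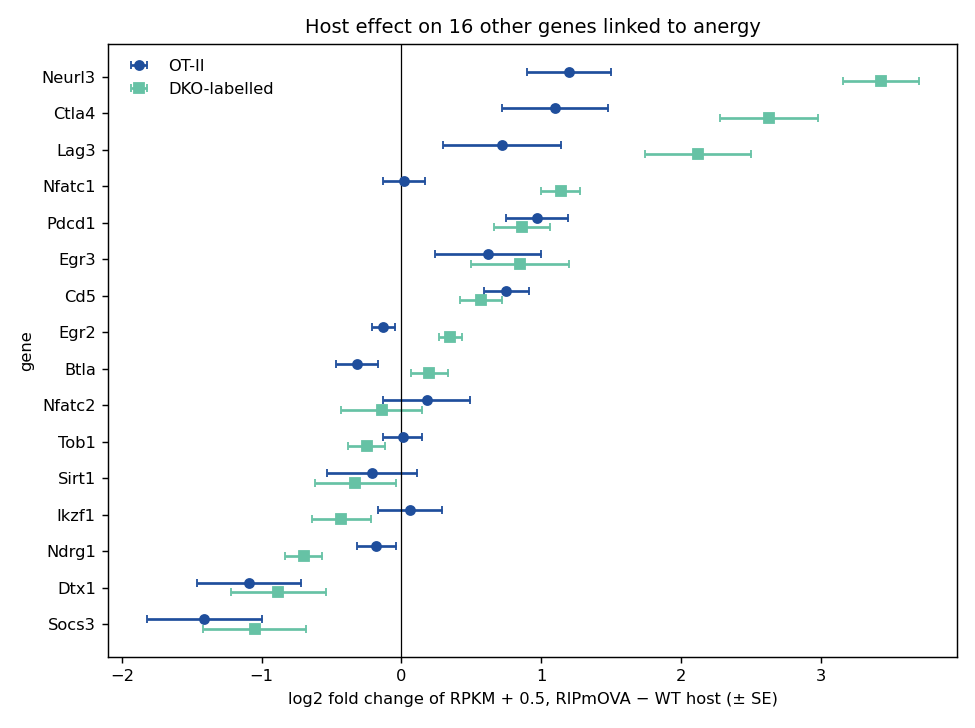
Host effect, RIPmOVA minus WT, on 16 other genes linked to anergy, as log2 fold change of RPKM + 0.5 (horizontal axis) with SE; circles are OT-II and squares DKO-labelled libraries. Neurl3, Ctla4, Lag3 and Nfatc1, the 4 called genes, stand at 3.43 to 1.14 in DKO-labelled libraries.

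Some genes used as markers of other cell types differed between hosts. The 3 regulatory T cell markers (Foxp3, Il2ra and Ikzf2) summed to 3.25 to 5.85 RPKM in OT-II WT, 1.38 to 2.48 in DKO-labelled WT, 31.4 to 33.8 in OT-II RIPmOVA and 13.6 to 23.4 in DKO-labelled RIPmOVA libraries. Foxp3 alone was 0.29 to 0.491 RPKM in OT-II WT and 1.9 to 3.31 RPKM in OT-II RIPmOVA libraries. It was 0.037 to 0.071 RPKM in DKO-labelled WT and 0.077 to 0.092 RPKM in DKO-labelled RIPmOVA libraries. The rise in DKO-labelled libraries lay in Il2ra (0.912 to 1.53 RPKM in WT and 5.26 to 8.48 in RIPmOVA hosts) and Ikzf2 (0.417 to 0.874 and 8.23 to 14.9). The paper reports HELIOS, the product of Ikzf2, in Foxp3-negative OT-II thymocytes of RIPmOVA hosts. Ikzf2 is therefore not read here as a marker of regulatory T cells alone, and the share of such cells in each library was not tested. The 4 myeloid or dendritic cell markers summed to 9.26 to 24.3 RPKM in WT hosts and 27.2 to 59 RPKM in RIPmOVA hosts. Cd74 was the highest of them in every group, and Itgax was at most 0.158 RPKM. In DKO-labelled libraries the rise lay mostly in Cd74, at 7.12 to 8.98 RPKM in WT and 24.2 to 30.8 RPKM in RIPmOVA hosts. The ranges of Lyz2 and H2-Aa in these libraries overlapped between hosts, while in OT-II libraries both were higher in RIPmOVA hosts. The sum of the thymic epithelial list was highest in DKO-labelled RIPmOVA libraries. The 4 thymic epithelial markers summed to 7.18 to 11 RPKM there, 4.87 to 6.73 in OT-II RIPmOVA, 3.29 to 5.09 in OT-II WT and 2.55 to 3.76 in DKO-labelled WT libraries. Most of this was Epcam, at 5.78 to 10.2 RPKM in DKO-labelled RIPmOVA libraries, and Krt5 was at most 0.166 RPKM in any library. The 3 NK or innate-like markers summed to 1.68 to 1.92 RPKM in DKO-labelled RIPmOVA, 0.383 to 0.461 in OT-II RIPmOVA, 0.281 to 1.08 in OT-II WT and 0.281 to 1.91 in DKO-labelled WT libraries. This list did not set the DKO-labelled RIPmOVA group apart, since DKO-labelled WT libraries reached the same range. No marker of these 4 lists was at 0 in all libraries. The part of these markers in the host effects on Nt5e, Nrn1 and Cblb, and in the genotype effect on Nrn1, was not tested.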

How the data were processed

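According to the paper's methods, the authors made SMART-seq v4 cDNA and NexteraXT libraries, aligned reads to mm10 with STAR and GENCODE vM17, removed duplicates marked by Picard and counted reads on the exons of each Entrez gene. From these reads the authors computed RPKM, the unit of the deposited table, and rounded it. How strand was treated, and which releases of the aligner and of Picard were run, are not given in the sources used here. The table's exon lengths gave back whole reads for 100% of low values (within 0.1 read), and hence the depth.

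The filter required an RPKM of 1 or more in 2 or more libraries. limma 3.58.1 (R 4.3.3) fitted group means of log2(RPKM + 0.5) to all 9 libraries (eBayes with an intensity trend, two-sided, Benjamini-Hochberg adjustment over 11569 genes), and the fit was tested on simulated data. The call limits followed those of the authors, who used DESeq2. Values and plots were made with matplotlib 3.10.9, scipy 1.17.1, pandas 2.3.3 and numpy 2.4.6 under Python 3.11.15. Gene positions are from GENCODE for GRCm38, the build of mm10, and promoters from RefSeq.

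The members and lists were chosen with earlier results of these data known. All 9 members were named. The lists held 1 further gene, which is left out of all counts and not reported here. Listed genes were named where called, at most 3 per list and comparison (a gene named in one comparison may also be described in another); Socs3, Egr3 and Dgkd, called in alternatives alone, were named after their values were seen, and for each called member the 2 most similar genes were named. By the labels, OT-II and DKO-labelled libraries of one number share a mouse. Their deviations from group means correlated at 0.01 and -0.24 in WT and -0.08 and -0.08 in RIPmOVA mice. With 2 libraries in each RIPmOVA group, the values of the RIPmOVA mice are equal by construction and count as 1. Each library is a sorted sample of a separate mouse within its group. The labels give no sequencing batch. An exact permutation test was not used for single genes, as groups of 2 libraries are too small for it.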

Additional observations from a re-analysis of the deposited data

How the results depend on the processing

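Each of 22 alternatives (21 for the interaction, which could not be fitted on fewer groups) changed 1 choice; voom on recovered reads was added after seeing the data. Of 40 member results, 28 kept their direction throughout. The 1 call for the host effect in OT-II became 2 with a pseudocount of 0.1 and with adjusted p alone, 3 with median-of-ratios rescaling, and 0 with no filter, a filter at RPKM 5, quantile normalization, only the libraries compared, no intensity trend, the receptor covariate and either replicate block (chimera, or number across hosts). It was 0 to 2 leaving out 1 library. The 1 call between genotypes in RIPmOVA hosts became 0 with no filter and with the covariate, and was 0 to 1 leaving out 1 library. The replicate block changed no other call of a member. The host effect in DKO-labelled libraries had 2 or 3 calls, and the other comparisons 0, in every alternative. Nt5e lost its call there with voom (adjusted p = 0.059).

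Leaving out 1 library at a time, the ranges of log2 fold changes that reversed were as follows. Host effect in OT-II, Dgkz -0.04 (without OT-II WT replicate 1) to 0.50 and Tox -0.02 (without OT-II RIPmOVA replicate 2) to 0.11. Host effect in DKO-labelled libraries, Dgka -0.17 to 0.04 (without DKO-labelled RIPmOVA replicate 1). Between genotypes in RIPmOVA hosts, Nt5e -0.33 to 1.46 and Cblb -0.28 to 0.33, both lowest without DKO-labelled RIPmOVA replicate 1. Between genotypes in WT hosts, Nt5e -0.45 to 0.09, Dgkz -0.34 to 0.20, both highest without OT-II WT replicate 2, and Dgka -0.02 to 0.08. Interaction, Nt5e -0.15 to 1.64 and Cblb -0.12 to 0.49, both lowest without DKO-labelled RIPmOVA replicate 1, and Izumo1r -0.18 to 0.12. None of these was called.

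Median-of-ratios rescaling moved the median of all genes to -0.13 for the host effect in DKO-labelled libraries, -0.17 between genotypes in RIPmOVA hosts and -0.19 for the interaction. Under it Cblb reversed to -0.20 between genotypes in RIPmOVA hosts and to -0.04 in the interaction, and Itch to -0.14 in the interaction. With the covariate, Cblb reversed to -0.08 between genotypes in RIPmOVA hosts and Izumo1r to 0.12 in the interaction, where quantile normalization gave 0.03. The cause was not tested.

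Counts over all genes also moved. The 142 calls for the host effect in OT-II became 55 with no filter, 31 with the compared libraries alone, 88 and 78 under the replicate block (chimera and number) and 219 with adjusted p alone, and 50 to 296 leaving out 1 library. The 194 in DKO-labelled libraries became 117 with no filter, 110 with the number block, 90 with the covariate and 387 with adjusted p alone, and 98 to 259 leaving out 1 library. The 124 between genotypes in RIPmOVA hosts became 81 with a filter at RPKM 5, 214 and 201 with median-of-ratios and quantile scaling, 220 with only the libraries compared, 76 with the number block, 20 with the covariate and 256 with adjusted p alone, and 21 to 217 leaving out 1 library. The 7 in WT hosts ran from 2 to 18, and the 2 of the interaction from 0 to 8, but to 100 and 159 without OT-II WT replicate 2.

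With 2 or 3 libraries a group, single libraries decide several calls, and 3 reads on 1 kb of exon already give 0.12 to 0.193 RPKM.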
